A study of Drosophila melanogaster with 36 samples.

Results

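The polyadenylated RNA of loci that give rise to endogenous siRNAs was compared between Drosophila melanogaster S2 cells that lack Dora and wild-type (WT) S2 cells. The comparison rested on 6 of the 36 samples of the series, 3 of genotype dora and 3 of genotype wild-type, all untreated and without immunoprecipitation. S2 is an established cell line of embryonic origin. The dora lines were made by transfection with a plasmid expressing Cas9 and a guide RNA against dora, puromycin selection and single-cell sorting, and each library of either genotype came from a different clonal line, so the difference between genotypes cannot be told apart from differences between clones beyond the spread among 3 clones. Whether the WT clones carried a control guide was not given in the sources used here. The table held 13063 entries, each 1 strand of a locus (8873 single transposable-element insertions, 3477 strands of cis-natural antisense transcript regions, 709 strands of regions in which several elements overlap, and 4 single named loci), and 1921 of them could be tested.

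Dora is the Drosophila ZSWIM8 protein, the substrate receptor of a cullin-RING ubiquitin ligase that acts in target-directed microRNA degradation (TDD). In TDD a target RNA with extensive pairing to a microRNA triggers the destruction of the Argonaute protein that carries it, and the microRNA is then degraded. Endogenous siRNAs arise by another route, in which Dcr-2 cleaves long double-stranded RNA from hairpin transcripts, from transposable elements or from convergent mRNAs whose ends overlap (cis-NATs), and the siRNAs are loaded mainly into Ago2. RNA from these same loci is thus the precursor of the siRNAs, and its level bears on how a difference in siRNA abundance between genotypes can be read.

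The guide sequences are shown because they give the sites targeted in dora, and a CG4068 siRNA is shown because its locus is the long hairpin followed below. The study's methods do not state which guide was used for each dora line or which lesion it carries. All 3 guides matched the genome (dm6) once with an adjacent PAM, in coding exons of Dora (FBgn0085430, chrX:18863950-18884075, plus strand), at chrX:18874286-18874305 (plus strand), chrX:18871673-18871692 (minus strand) and chrX:18871773-18871792 (plus strand), in the order given. Capitals mark the PAM read from the genome in the guides and the seed, bases 2 to 8, in the siRNA.
Dora_sgRNA1: cgctggaggcttaggagtgcTGG
Dora_sgRNA2: cagctcgaacggtatgtaggAGG
Dora_sgRNA3: catccggctctactcctgtcTGG
CG4068_1 siRNA: tTGACTCCaacaagttcgctcc

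The siRNA occurred as 20 exact copies on the minus strand of the CG4068 locus, with a median spacing of 283 nt, and 0 times elsewhere in the genome. None of the 13063 entries overlapped the Dora gene, so the loss of its own transcript could not be checked in this table.

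Values were deposited as FPKM (fragment reads per kilobase of locus, scaled to 1000000 genome-mapped reads). Locus lengths and fragment statistics fix what 1 read is worth. Over the full span, 91.6% to 92.3% of the values above 0 in each library came out as whole reads within 0.02 reads, or a wider margin at high counts. For other cis-NAT entries a shorter length that gave whole reads was searched for, which raised this to 98.9% to 99.5% by construction. Where the authors' list could be checked, 27 of 28 such lengths equalled the listed exon length within 1 nt. Read numbers below are these recovered reads, given in the order WT replicates 1, 2 and 3, then dora replicates 1, 2 and 3. RPM denotes recovered reads per 1000000 genome-mapped reads. By the fitted worth of 1 read, the libraries held 15936078 to 19346825 genome-mapped reads, which were inferred from the FPKM values and not counted. Of these, 179806 to 252889 (1.13% to 1.31%) fell on the listed loci, and 2907 to 3471 entries per library were above 0. A single read was worth 1729 to 2099 FPKM at a locus of 52 nt but 0.000786 to 0.000954 FPKM at one of 66002 nt. The 3444 entries shorter than 100 nt therefore held 83.3% of the summed mean FPKM, and FPKM sums describe those short entries above all.

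Among the tested loci the genotypes separated on the first principal component, but no locus passed the main test. A locus was tested when it was above 0 in all 6 libraries and its coefficient of variation was below 1 in each genotype, and limma was run on log2(FPKM + 0.01), a scale that understates the change of low loci. The number of loci with a Benjamini-Hochberg adjusted p under 0.05 was 0 in the higher direction (0% of loci tested) and 0 in the lower direction (0%), and the lowest adjusted p was 0.0986. At an unadjusted p under 0.05, 87 loci (4.53%) were higher and 166 (8.64%) were lower in dora. The median difference over all tested loci was -0.12 on the log2 scale, and dividing each library by its median ratio to the others moved that median by 0.11 and changed those counts to 112 and 126.

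All 3 dora values lay above all 3 WT values at 128 loci (6.66%) and below them at 243 loci (12.6%). For a single locus or sum, the smallest p that an exact permutation of 3 against 3 libraries allows is 0.1. A principal component analysis used the 1226 tested loci with at least 60 reads. Loci with a wide spread within a genotype had been filtered out, which favours a separation by genotype. The first component held 38.0% of the variance. It placed the WT libraries at -13.9 to -8.91 and the dora libraries at 4.79 to 17.1. The second component, with 23.2%, placed WT replicate 2 and dora replicate 1 together at -11.7 and -11.8, apart from the other 4 libraries at 1.75 to 12.0.

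A count test on the recovered reads, edgeR's quasi-likelihood test with genome-mapped reads as library size, called 12 loci higher (0.625%) and 9 lower (0.469%) at an adjusted p under 0.05. The number of calls moved with the setting, from 3 higher and 3 lower among loci of any coefficient of variation, and 4 and 7 among loci with at least 60 reads, to 22 and 9 with TMM normalization and 30 and 12 with DESeq2. It was 6 and 5 without WT replicate 1, 3 and 7 without WT replicate 2, 6 and 4 without WT replicate 3, and 34 and 24 without dora replicate 3. By limma, 0 of the 21 loci called with all libraries passed. Of the 21 edgeR calls, 5 were made again in each of the 6 fits that left out 1 library and in each of the other 5 edgeR and DESeq2 settings, and these are described first. They, like all loci named for their edgeR result, were picked after the values had been seen.

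**Figure D1:**
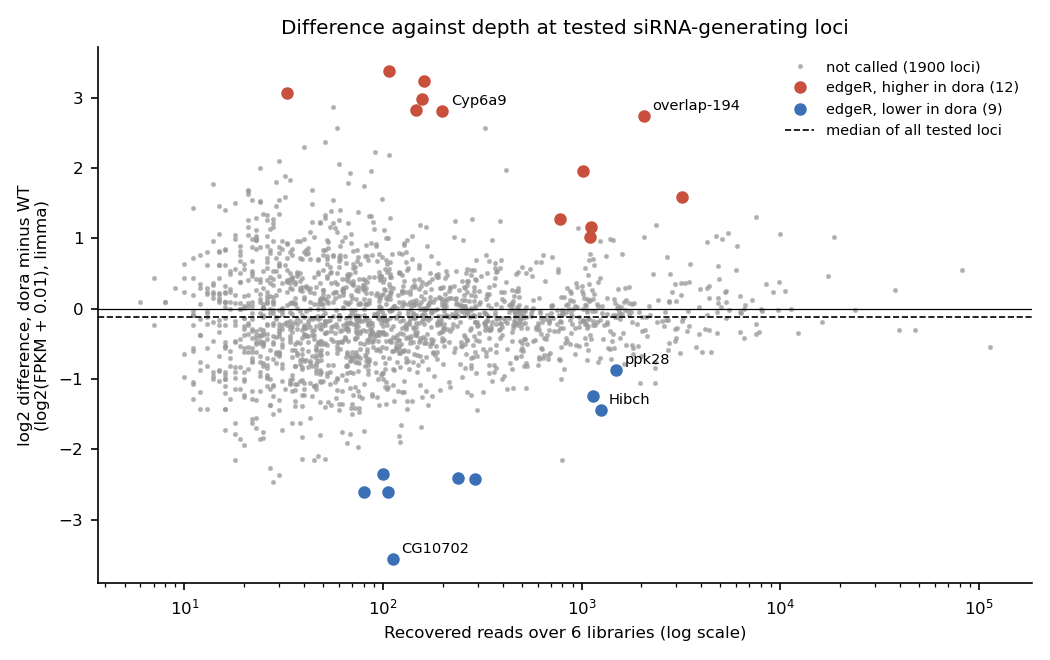
Difference between dora and WT (log2 FPKM scale, limma) of the 1921 tested loci against their total recovered reads over 6 libraries (log axis). Coloured points are the 12 loci higher and 9 loci lower by edgeR, and the dashed line is the median of all loci, -0.12. The 957 loci with fewer than 95 reads lie at a median distance of 0.50 from that line and the other 964 at 0.29, with wide differences in both groups.

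The locus with the smallest p in either test was cisNAT-161 (chr2R:14879356-14879751, minus strand), which lies on the strand of Cyp6a9, a cytochrome P450 gene, opposite Cyp6a19. It held 8, 9 and 8 reads in WT and 33, 67 and 74 in dora, so every dora clone was above every WT clone. Its mean FPKM was 2.42 ± 0.44 in WT and 17.8 ± 6.56 in dora (SD, n = 3), a log2 difference of 2.81 ± 0.38 (SE). The limma adjusted p was 0.0986 and the edgeR adjusted p 0.00359, with 0.000599 to 0.0156 when 1 library was left out. The opposite strand held 0 or 1 read in each library.

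FBti0061704+, the antisense strand of an INE-1 insertion (chr3R:4268509-4269121), was the other locus with higher reads that kept its edgeR call throughout. INE-1 is a short, very numerous and long-inactive element of the fly genome. The reads were 98, 32 and 109 in WT and 222, 321 and 231 in dora, without overlap. The log2 difference was 1.96 ± 0.43 (SE), with a limma adjusted p of 0.161 and an edgeR adjusted p of 0.00823 (0.00276 to 0.0156 without 1 library).

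Of the 3 loci lower in dora that kept their edgeR call, cisNAT+300 (chr3R:15358538-15359263) lies on the strand of Hibch, which encodes a hydrolase of valine breakdown, opposite Cog2. It held 319, 227 and 383 reads in WT and 75, 107 and 138 in dora. Mean FPKM was 32.4 ± 5.32 in WT and 12.1 ± 3.60 in dora (SD, n = 3), a log2 difference of -1.45 ± 0.31 (SE; limma adjusted p = 0.161, edgeR adjusted p = 0.00823). The Cog2 strand of the same region, cisNAT-300, held 50, 25 and 37 reads in WT and 26, 41 and 29 in dora, which overlapped, so only the Hibch strand separated the genotypes.

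On cisNAT-590 (chr2L:19064929-19069672, on the strand of CG10702) the reads were 34, 22 and 47 in WT and 4, 4 and 1 in dora. The log2 difference was -3.56 ± 0.58 (SE), with a limma adjusted p of 0.0986 and an edgeR adjusted p of 0.00823. The opposite strand, that of CG17343, overlapped between genotypes at 29 to 44 reads in WT and 30 to 48 in dora. The fifth such locus was overlap-379 (chr3L:23680720-23682775, minus strand), a region of overlapping elements with no annotated gene, at 291, 295 and 234 reads in WT and 100, 112 and 111 in dora (log2 difference -1.24 ± 0.29 SE, limma adjusted p = 0.193, edgeR adjusted p = 0.00823).

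**Figure D2:**
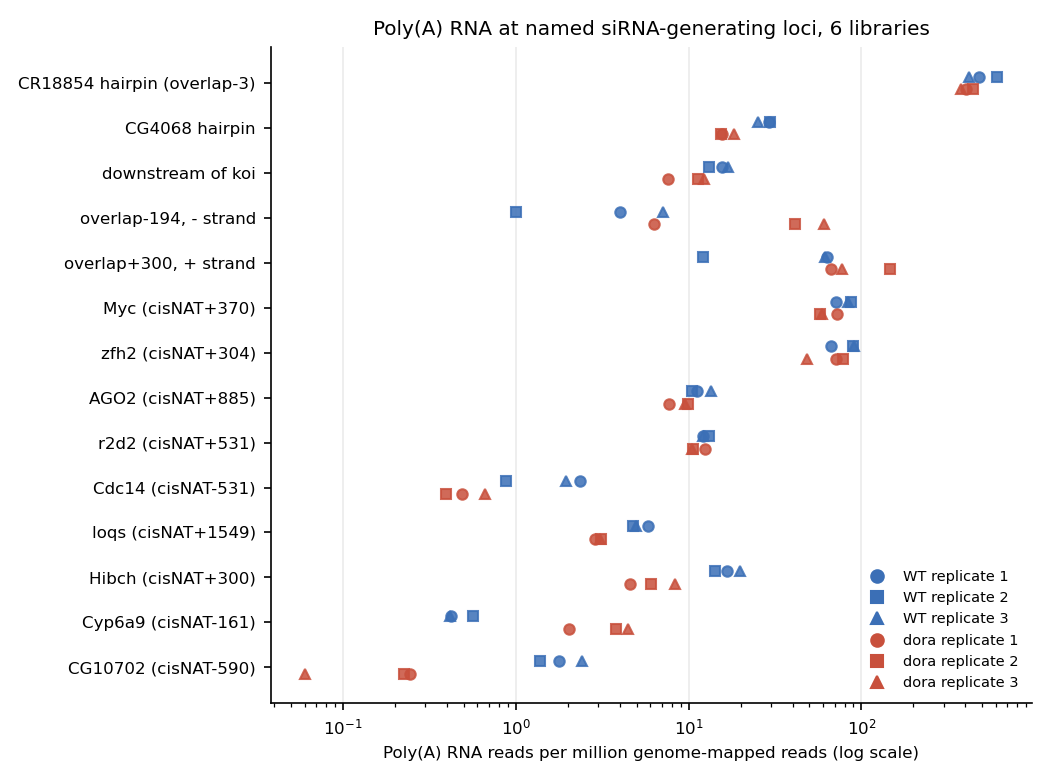
Reads per 1000000 genome-mapped reads (log axis) of 14 loci described in the text, with 1 point per library, by genotype. The genotypes separate at cisNAT-161 (Cyp6a9), cisNAT+300 (Hibch), cisNAT-590 (CG10702) and the CG4068 hairpin and overlap at cisNAT+531 (r2d2) and at overlap-194, where dora replicate 1 lies among the WT lines.

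The hairpin loci were represented by fewer reads in dora than in WT, without passing either test. CG4068 (chrX:4921677-4928133), where CG44774 and hpRNA:CR46342 are annotated on the minus strand, is a long inverted-repeat gene whose siRNAs are among the best known of S2 cells. It held 555, 469 and 490 reads in WT and 255, 272 and 305 in dora. Mean FPKM was 4.47 ± 0.37 in WT and 2.63 ± 0.27 in dora (SD, n = 3), a log2 difference of -0.76 ± 0.29 (SE), with a limma adjusted p of 0.320 and an edgeR adjusted p of 0.0650. The 3 dora libraries lay below all 3 WT libraries, and the difference stayed between -0.84 and -0.72 whichever library was left out.

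The small RNAs of the same locus did not follow that order. The CG4068 signal of total small-RNA libraries of the WT and dora lines, in the authors' units of reads scaled to genome-mapped reads, was 12949, 15642 and 15334 in WT and 13923, 13632 and 21140 in dora, which overlapped. Among small RNAs bound to Ago1 it was 1694, 1968 and 3281 in WT and 4077, 4616 and 8489 in dora, which did not.

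The second hairpin, hpRNA:CR18854, lies within overlap-3 (chr2L:9787285-9790745, minus strand, opposite IP3K1, an inositol trisphosphate kinase gene), the entry with the most small-RNA signal of the whole list. It held 9188, 9768 and 8159 poly(A) reads in WT and 6551, 7776 and 6245 in dora. Mean FPKM was 155.3 ± 30.0 and 124.7 ± 9.92 (SD, n = 3), a log2 difference of -0.30 ± 0.24 (SE; limma adjusted p = 0.632), and on the FPKM scale the genotypes overlapped.

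Downstream_koi (chr2R:6817240-6817857), an siRNA locus named for its place beside the gene koi, held 296, 209 and 329 reads in WT and 125, 201 and 204 in dora. Mean FPKM was 36.7 ± 4.74 in WT and 25.2 ± 5.95 in dora (SD, n = 3), a log2 difference of -0.56 ± 0.28 (SE; limma adjusted p = 0.451). CR46340 (chr3L:21576460-21576661) and Downstream_CG4770 (chr3R:19920693-19920876), the other named loci, were listed at 0 in all 6 libraries, in the total small-RNA libraries as well. Together the 4 named loci summed to 44.7, 42.5 and 42.3 RPM in WT and 23.3, 26.8 and 30.7 RPM in dora, a ratio of 0.623 (exact permutation p = 0.1, two-sided).

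Among the cis-NATs, 1173 entries were tested, 30 (2.56%) were higher and 116 (9.89%) lower at an unadjusted limma p under 0.05, beside 4.53% and 8.64% of all loci, and their median log2 difference was -0.15. Their summed reads hardly differed, with a ratio of dora to WT of 0.956 in RPM (exact permutation p = 0.3, two-sided) that became 1.04 after rescaling to the median ratio. Reads on a cis-NAT entry are mostly those of the mRNA on that strand, and in the 587 regions with at least 100 reads a median of 2.41% fell on the lesser strand. Of 278 regions with both strands tested, 160 had differences of the same sign on both.

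The cis-NATs called by edgeR beside those above were cisNAT-96 in the higher direction and cisNAT+1491, cisNAT-1048, cisNAT-402 and cisNAT+569 in the lower. On cisNAT-96 (chr3R:14569148-14569364), on the strand of Cys, which encodes a cystatin-like protease inhibitor, reads were 153, 88 and 141 in WT and 248, 175 and 299 in dora (edgeR adjusted p = 0.0485). On cisNAT+1491 (chrX:16806067-16808515), on the strand of ppk28, a degenerin-type ion channel gene known for water taste, they were 318, 305 and 366 in WT and 172, 171 and 157 in dora (edgeR adjusted p = 0.0353). Both strands of this region were lower in dora. The antisense RNA on the other strand, cisNAT-1491, held 8, 11 and 7 reads in WT and 2, 1 and 1 in dora (edgeR adjusted p = 0.0650).

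The remaining 3 held fewer reads. On cisNAT-402 (CG1628 strand) they were 25, 18 and 26 in WT and 4, 2 and 5 in dora, and on cisNAT-1048 (CG5835 strand) 26, 25 and 39 in WT and 3, 3 and 10 in dora. On cisNAT+569, the strand of Rsph1, a radial spoke protein gene of cilia and flagella, they were 21, 17 and 47 in WT and 8, 4 and 3 in dora. These calls were the least steady ones: each of the 5 cis-NATs just named lost its edgeR call in 5 of the 6 fits without 1 library.

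Several of the smallest limma p-values belonged to short regions with few reads. cisNAT-1350 (chr3L:16042786-16042967), on the strand of Diap1, the fly inhibitor of apoptosis, held 4, 3 and 5 reads in WT and 10, 22 and 16 in dora (log2 difference 2.06 ± 0.33 SE, limma adjusted p = 0.0986). cisNAT-1253, on the strand of QC, a glutaminyl cyclase gene, held 17, 12 and 24 reads in WT and 3, 5 and 5 in dora (log2 difference -1.91 ± 0.31 SE, limma adjusted p = 0.0986). cisNAT-249, on the strand of Ts, the thymidylate synthase gene, held 10, 7 and 14 in WT and 3, 3 and 2 in dora (limma adjusted p = 0.0986). At these numbers a single read moves a value by a large share, which FPKM alone does not show.

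The other cis-NATs among the 10 smallest limma p-values in each direction had the same character. Higher in dora were cisNAT+1662 (lncRNA:CR45318; 2, 2 and 4 reads in WT, 8, 24 and 11 in dora) and cisNAT+131 (CG1943; 4, 2 and 3 in WT, 6, 9 and 6 in dora). Lower in dora were cisNAT+952 (Hpf1; 12, 7 and 5 in WT, 2, 1 and 1 in dora), cisNAT+960 (CG2698; 8, 7 and 6 in WT, 3, 2 and 2 in dora) and cisNAT+1457. Of these, cisNAT+1457, on the strand of the phospholipase C gene Plc21C, had the most reads, with 31, 24 and 35 in WT and 12, 15 and 10 in dora (log2 difference -1.19 ± 0.24 SE, limma adjusted p = 0.153).

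Genes from a list of small-RNA pathway components and candidate siRNA or microRNA targets overlapped 6 tested cis-NAT entries. cisNAT+531, on the strand of r2d2, the double-stranded RNA-binding partner of Dcr-2, held 232, 210 and 234 reads in WT and 202, 188 and 174 in dora (log2 difference -0.16 ± 0.22 SE, limma adjusted p = 0.803). Its other strand, cisNAT-531, belongs to the phosphatase gene Cdc14 and held 45, 14 and 38 reads in WT and 8, 7 and 11 in dora (log2 difference -1.66 ± 0.45 SE, limma adjusted p = 0.245). The r2d2 strand overlapped between genotypes on the FPKM scale and the Cdc14 strand did not.

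cisNAT+885, on the strand of AGO2, the Argonaute of the siRNA pathway, held 214, 166 and 260 reads in WT and 126, 176 and 157 in dora, without overlap on the FPKM scale (log2 difference -0.37 ± 0.24 SE, limma adjusted p = 0.543). The opposite strand, cisNAT-885, in CG7739, was at 193, 174 and 185 in WT and 126, 200 and 182 in dora, and its difference of -0.05 turned to 0.07 after rescaling. cisNAT+1549, on the strand of loqs, another double-stranded RNA-binding partner of Dicer, held 111, 76 and 96 reads in WT and 47, 55 and 51 in dora (log2 difference -0.77 ± 0.24 SE, limma adjusted p = 0.290, edgeR adjusted p = 0.106). cisNAT-82, on the strand of the BMP receptor gene tkv, held 1 to 5 reads per library.

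On the cis-NAT strand of the transcription factor gene zfh2 (chr4:538331-540874) the log2 difference was -0.33 ± 0.29 (SE, limma adjusted p = 0.656), and on cisNAT+370, the strand of Myc, it was -0.36 ± 0.25 (SE, limma adjusted p = 0.576). Reads were 804 to 1758 per library on the first and 982 to 1623 on the second. The opposite strands held at most 5 reads in any library, 0 to 5 for the Tdg strand (cisNAT-304) and 0 or 1 for the CG12535 strand (cisNAT-370), and were not tested.

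Of 580 transposable-element entries tested, 46 (7.93%) were higher and 36 (6.21%) lower at an unadjusted limma p under 0.05, beside 4.53% and 8.64% of all loci, and their median log2 difference was -0.06, beside -0.12. By edgeR 7 of them were higher and 2 lower, beside 0.625% and 0.469% of all loci. Their summed reads were 3062, 1923 and 2851 RPM in WT and 2541, 3776 and 3057 RPM in dora, which overlapped (ratio 1.20, exact permutation p = 0.5, two-sided), whereas after rescaling to the median ratio the dora sums lay above all WT sums (ratio 1.30).

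The class sum was carried by a few families. One insertion of the LTR retrotransposon gypsy5, FBti0019622- (chrX:11194484-11201846, sense strand), held 18615, 589 and 20666 reads in WT and 1373, 23037 and 18451 in dora, more than any other transposable-element entry. WT replicate 2 and dora replicate 1 were low and the other 4 lines high, with a 35.2-fold range of the family over the 6 lines, so the split ran across the genotypes. Its log2 difference was 0.55 ± 1.53 (SE; limma adjusted p = 0.917), and without WT replicate 2 it was -1.04.

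Another pattern across genotypes was shared by 11 of the 65 families with at least 100 sense reads, in which WT replicate 1, dora replicate 1 and dora replicate 2 were the 3 highest lines. These were the non-LTR elements Doc, BS, jockey, X and G and the LTR elements mdg1, opus, Tabor, roo, Stalker2 and ZAM. Doc sense RNA, with 63.4% of its reads on 1 insertion, stood at 264.0, 194.5 and 183.2 RPM in WT and 418.6, 440.4 and 185.0 RPM in dora. For mdg1 the values were 110.8, 77.2 and 53.0 RPM in WT and 202.1, 191.2 and 84.7 RPM in dora. In both families dora replicate 3 lay among the WT lines, and the genotypes overlapped. The pattern was noticed in the values and was not tested.

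The 17 families listed for the comparison (among them mdg1, blood, roo, copia, gypsy, Tirant, Doc, jockey, Juan and INE-1) had 325 tested entries, of which 23 (7.08%) were higher and 20 (6.15%) lower at an unadjusted limma p under 0.05, beside the same 4.53% and 8.64% of all loci. INE-1 supplied 198 of the tested entries and 17 and 18 of these. copia, an LTR element with 17 tested sense entries, had 0 of them at that threshold in either direction and sense sums of 190.5, 155.1 and 249.2 RPM in WT and 144.7, 104.6 and 168.1 RPM in dora. The genotypes overlapped for copia.

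Of 101 pairs of family and orientation with at least 100 reads, 12 had all dora lines above all WT lines and 12 had all below. Among all tested loci, 6.66% lay above and 12.6% below in the same way. A lack of overlap by itself gives the smallest exact permutation p of 0.1. After rescaling, 11 of the higher and 9 of the lower pairs still did not overlap. The telomeric element HeT-A was among the lower, with sense sums of 4.47, 4.14 and 9.25 RPM in WT and 1.71, 2.83 and 2.71 RPM in dora. Idefix, an LTR element, was among the higher, with 21.9, 25.3 and 15.0 RPM in WT and 29.3, 37.0 and 37.2 RPM in dora. For blood, also an LTR element, sense RNA was 31.6, 24.5 and 20.9 RPM in WT and 32.2, 38.7 and 35.2 RPM in dora. A single entry held 61.6% of the HeT-A, 94.3% of the Idefix and 71.8% of the blood sense reads, so these sums largely describe single insertions.

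In 2 families, gypsy8 and flea, the strands went apart. A single entry held 82.5% of the gypsy8 antisense reads and another 46.9% of its sense reads. For flea, 1 insertion led both strands, with 60.4% of the antisense and 55.3% of the sense reads. gypsy8, an LTR element, had antisense sums of 9.88, 11.6 and 8.89 RPM in WT and 15.2, 14.3 and 17.62 RPM in dora and sense sums of 15.3, 13.5 and 9.92 RPM in WT and 8.63, 8.62 and 7.78 RPM in dora, although the sense sums overlapped after rescaling. flea, also an LTR element, had antisense sums of 0.841, 1.13 and 0.724 RPM in WT and 1.59, 1.30 and 3.14 RPM in dora and sense sums of 5.52, 5.58 and 8.58 RPM in WT and 3.73, 2.49 and 3.68 RPM in dora, and neither strand overlapped after rescaling. The sums of INE-1, sense and antisense, were lower in dora (ratios 0.900 and 0.856) and also overlapped after rescaling. Of the 77 families with at least 100 reads, 42 had over 80% of them on the sense strand, 7 had 40% to 60%, and 6 had under 20%. INE-1 had 55.1% sense reads, gypsy5 had 1 antisense read among 82767, and hopper, a DNA transposon, had 1.12% sense reads.

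**Figure D3:**
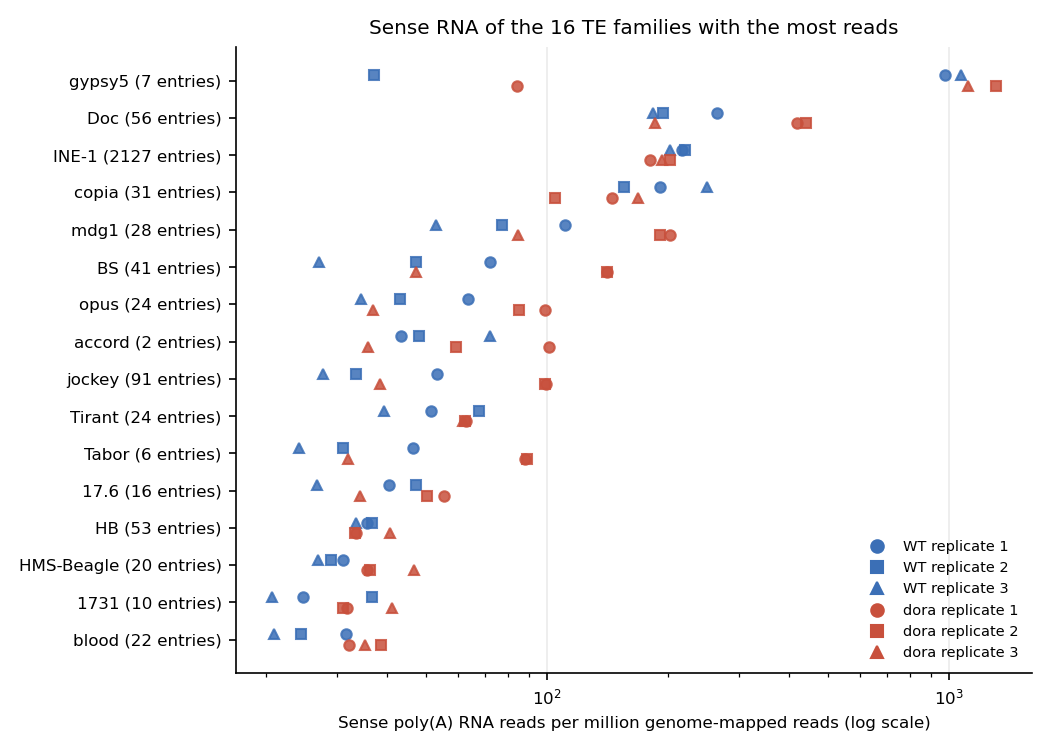
Summed sense-strand reads per 1000000 genome-mapped reads (log axis) of 16 transposable-element families, with 1 point per library, by genotype. In gypsy5 WT replicate 2 (37.1 RPM) and dora replicate 1 (84.3 RPM) lie far below the other 4 lines, and in Doc and mdg1 dora replicates 1 and 2 lie above all other lines.

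Single insertions called by edgeR included FBti0019425-, the sense strand of a flea element, with 66, 63 and 116 reads in WT and 21, 5 and 20 in dora (edgeR adjusted p = 0.0105), and FBti0062912+, the antisense strand of an invader1 element, with 77, 29 and 98 in WT and 9, 7 and 19 in dora (edgeR adjusted p = 0.0129). Both were lower in dora, and each lost the call without WT replicate 3 (adjusted p 0.0589 and 0.0715). FBti0019492-, the sense strand of an F element on chromosome 4, held 1 read in each WT library and 17, 8 and 5 in dora (edgeR adjusted p = 0.0361), and its call was lost in 4 of the 6 fits without 1 library. Its antisense strand held 153, 129 and 125 reads in WT and 108, 184 and 172 in dora, far more than the sense strand. FBti0061490+, the antisense strand of an FB element, had the smallest limma p among lower loci without overlap (adjusted p = 0.0986). It held 5 reads in each WT library and 1 in each dora library. FBti0019234- (invader4, sense) held 12, 11 and 20 in WT and 2, 4 and 2 in dora (limma adjusted p = 0.149). FBti0019249- (Idefix, sense) held 11, 3 and 7 in WT and 42, 15 and 29 in dora (limma adjusted p = 0.240).

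Of the 12 loci higher by edgeR, 7 lay on chromosome arm 2R, which held 434 (22.6%) of the tested loci. Of the 12, 6 had another of them within 10 kb, and 0 of the 9 lower loci had another lower locus that near. How many of all tested loci have a tested neighbour that near was not counted, so these numbers have no baseline. A group of 4 of the 12 higher loci fell on the plus strand of chr2R:5111863-5120119, where 10 entries had reads and 7 were tested. The stretch summed to 3.42, 1.00 and 1.29 RPM in WT and 6.0, 16.3 and 16.3 RPM in dora, so that dora replicate 1 was nearest to WT. Within it, FBti0060938-, an INE-1 insertion, held 7, 2 and 2 reads in WT and 21, 51 and 24 in dora (log2 difference 3.37 ± 0.56 SE, limma adjusted p = 0.0986, edgeR adjusted p = 0.0105).

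The neighbours in the stretch cannot be counted as separate observations, since adjacent entries on 1 strand may be parts of 1 transcript. Their order of lines was mostly alike, with dora replicate 1 the lowest dora line. FBti0060130-, an INE-1 insertion, was an exception, with 7, 4 and 4 reads in WT and 19, 22 and 12 in dora. FBti0061159-, a gypsy10 insertion, held 15, 2 and 4 reads in WT and 13, 62 and 61 in dora, and FBti0060132+, an antisense INE-1 entry, 12, 3 and 5 in WT and 19, 46 and 62 in dora. On 2L, overlap-45 (113, 78 and 180 reads in WT, 263, 295 and 189 in dora) and FBti0060174- (90, 45 and 114 in WT, 209, 173 and 149 in dora) formed another such pair on the minus strand. The fold changes of these 2 entries were near each other, at log2 differences of 1.16 and 1.28.

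overlap-175 (chr2R:5374815-5394948, minus strand) stood at 13.2, 13.1 and 15.7 RPM in WT and 88.4, 32.1 and 26.4 RPM in dora. All dora lines were above all WT lines, and dora replicate 1 was the highest. The log2 difference was 1.58 ± 0.50 (SE), with a limma adjusted p of 0.299 and an edgeR adjusted p of 0.0180, and the edgeR call was lost when any of the 3 WT replicates was left out (highest adjusted p 0.0777).

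The entry overlap-194 (chr2R:6256172-6322173, minus strand) is a region of 66002 nt in which 21 transposable-element families overlap and no gene is annotated. It lies in the part of 2R that holds the 42AB piRNA cluster, a long stretch of nested transposon fragments known as a piRNA source in the germline. Poly(A) reads were 76, 16 and 138 in WT and 103, 727 and 1003 in dora. Replicates 2 and 3 of dora were above every WT line, whereas dora replicate 1, at 6.30 RPM, lay within the WT range of 1.00 to 7.13 RPM.

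Its mean FPKM was 0.061 ± 0.047 in WT and 0.55 ± 0.42 in dora (SD, n = 3), a log2 difference of 2.74 ± 0.92 (SE). The limma adjusted p was 0.300 and the edgeR adjusted p 0.0258. The locus passed the filters in only 3 of the 6 fits without 1 library, and without WT replicate 2 the edgeR adjusted p was 0.0680. The edgeR call was also lost among loci of any coefficient of variation and among loci with at least 60 reads (highest adjusted p 0.107). The opposite strand, overlap+300, had more reads, at 63.6, 12.2 and 61.9 RPM in WT and 66.7, 147.0 and 77.7 RPM in dora (log2 difference 1.31 ± 0.69 SE, limma adjusted p = 0.472). WT replicate 2 was the lowest line on both strands.

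The small RNAs of overlap-194 showed the same 2 dora lines high in 2 of 3 kinds of library. In total small-RNA libraries the signal was 6838, 1496 and 4078 in WT and 8073, 54802 and 51239 in dora. In periodate-treated libraries, which enrich small RNAs with a methylated end such as those in Ago2, it was 8374, 5282 and 12081 in WT and 9645, 115079 and 79919 in dora. Among small RNAs bound to Ago1 it was 403.4, 218.7 and 298.3 in WT and 5692, 6799 and 4279 in dora, so that here dora replicate 1 was as high as the other dora lines, unlike in the poly(A) RNA.

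A neighbouring part of 2R set dora replicate 3 apart from every other line. The window chr2R:6400001-6500000 held 60 entries with 2923 reads, and its sum was 5.41, 4.96 and 9.56 RPM in WT and 3.24, 7.99 and 142.5 RPM in dora. All 12 of its entries with at least 30 reads were on the plus strand, and in 11 of them dora replicate 3 exceeded the highest other line by more than 4 times (median ratio 13.5 over the 12, range 2.37 to 26.7). None of the 12 was tested, because the coefficient of variation within dora was above 1. The entry with the most reads, overlap+306, held 18, 25 and 30 in WT and 12, 49 and 783 in dora.

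In this window 1 of the 3 dora lines was high and the other 2 lay near the WT lines. On the minus strand just before overlap-194, overlap-193 held 1, 1 and 4 reads in WT and 5, 17 and 70 in dora, so that there all 3 dora lines were above all WT lines, with dora replicate 3 the highest. Of 435 windows of 100 kb with at least 200 reads, 3 others had 1 line that differed at least 4-fold from every other. WT replicate 2 was high at cisNAT-514 on 2L (CG9171, 45.6 RPM beside at most 6.06 in the others) and low at cisNAT+199 on X (ec, 0.063 RPM beside 2.17 to 5.69), and dora replicate 3 was low in a window on 3R led by cisNAT+1679 (PolI).

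**Figure D4:**
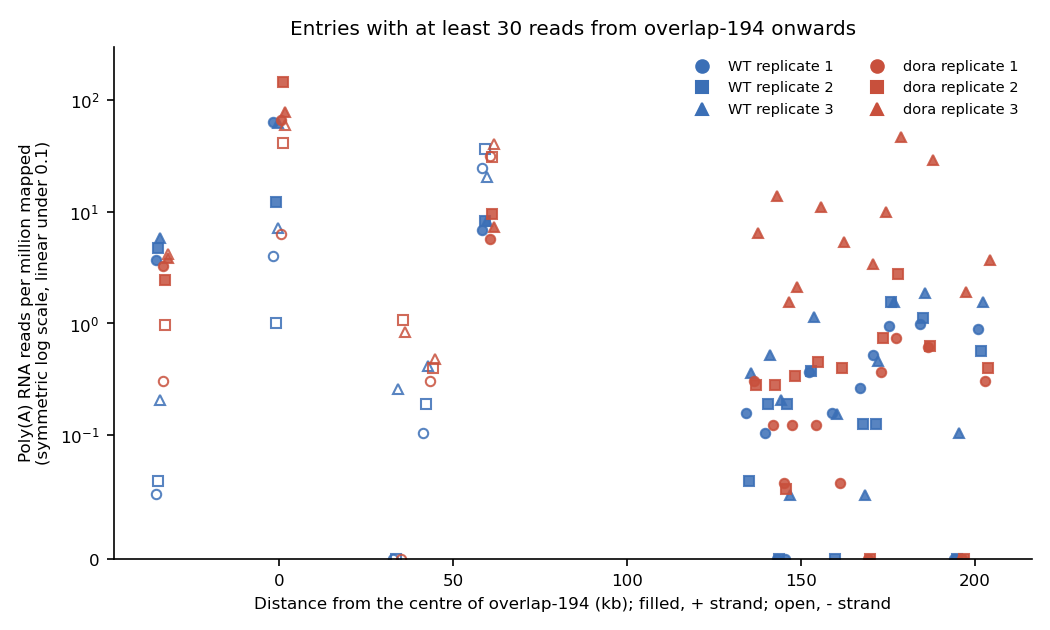
Reads per 1000000 genome-mapped reads (symmetric log axis, linear under 0.1) of the entries with at least 30 reads around overlap-194 against their distance from its centre in kb, by library, with filled symbols for the plus strand and open symbols for the minus strand. In the window of chr2R:6400001-6500000, on the right, dora replicate 3 lies above the other 5 lines, and at the centre dora replicates 2 and 3 do on the minus strand.

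The merged overlap regions as a class differed little. Of 166 tested entries 11 (6.63%) were higher and 13 (7.83%) lower at an unadjusted limma p under 0.05, beside 4.53% and 8.64% of all loci. Their sums were 2421, 2410 and 2807 RPM in WT and 2275, 2104 and 2283 RPM in dora (ratio 0.872, exact permutation p = 0.1, two-sided), and after rescaling the genotypes overlapped. overlap-39 (chr2L:22200858-22209489, minus strand) alone held 21621, 17797 and 29976 reads in WT and 16967, 12140 and 14755 in dora (log2 difference -0.54 ± 0.27 SE, limma adjusted p = 0.446).

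The loci with the highest FPKM did not separate the genotypes at the adjusted threshold. All 8 were cis-NATs of 53 to 84 nt at the ends of expressed genes. The highest, cisNAT-92, on the strand of the cyclophilin gene Cyp1, stood at 43594 ± 6344 FPKM in WT and 51762 ± 10072 in dora (SD, n = 3), or 475, 454 and 411 reads in WT and 378, 604 and 519 in dora (log2 difference 0.24 ± 0.40 SE, limma adjusted p = 0.850). cisNAT-1327, on the strand of the glycolytic gene Pgk, held 63, 37 and 55 reads in WT and 41, 55 and 57 in dora. cisNAT+1255, on the strand of the translation factor gene eIF2A, held 209, 204 and 140 in WT and 210, 236 and 215 in dora.

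The other 5 of the 8 were cisNAT+630 (CG13751), cisNAT+571 (Pect), cisNAT-560 (CG6686), cisNAT-103 (eIF2beta) and cisNAT+1161 (Hmu), with 6 to 50 reads per library. Their log2 differences ran from -0.48 to 0.66, and the lowest limma adjusted p of the 8 loci was 0.516. Among the cis-NATs with the most reads, cisNAT-177 (Nap1, a histone chaperone gene) held 7636, 7321 and 7550 in WT and 5693, 6681 and 4766 in dora. cisNAT+1462, on the strand of the cytochrome P450 gene Cyp9c1, held 6709, 4985 and 6215 in WT and 6745, 6889 and 6226 in dora (log2 differences -0.31 ± 0.23 and 0.26 ± 0.21 SE, limma adjusted p = 0.610 and 0.644).

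Loci seen in 1 genotype only were few and held few reads. Of all listed loci, 26 had reads in all WT lines and no dora line, with at most 14 reads over the 6 libraries, and 18 had reads in all dora lines and no WT line, with at most 20. Where a genotype had 0 reads, a count of 0 allows up to 3 reads per library, which covers counting error only. At these depths the presence of RNA in the other genotype was not detectable, and no fold change is given.

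The loci richest in small RNA ranged widely in poly(A) RNA. Of the 20 entries with the highest mean signal in the total small-RNA libraries of the same genotypes, 8 held at least 500 poly(A) reads over the 6 libraries, as did 351 of all 13063 entries, and 3 had no poly(A) read in any library. Of the 20, 11 could be tested, 1 of these had an unadjusted limma p under 0.05, beside 13.2% of all tested loci in either direction, and 0 were called by edgeR, beside 1.09%. cisNAT-1355, on the strand of Tango9, had the next highest small-RNA signal after overlap-3 and held 0 to 9 poly(A) reads per library. FBti0019611+, the antisense strand of an LTR element, came next and held 1 poly(A) read over all 6 libraries.

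cisNAT+1717, in CG7546, by contrast, also among the 20, held 909, 779 and 895 poly(A) reads in WT and 808, 943 and 718 in dora (log2 difference 0.03, limma adjusted p = 0.963). Across the 3184 entries above 0 in both kinds of library, the levels of poly(A) reads and of total small RNA had a Spearman correlation of 0.424. The log2 differences between genotypes had one of 0.187 over the 691 tested loci with small-RNA signal in every library. Both are descriptions across loci, which are not independent replicates, and the same lines, though separate libraries, underlie both measures.

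**Figure D5:**
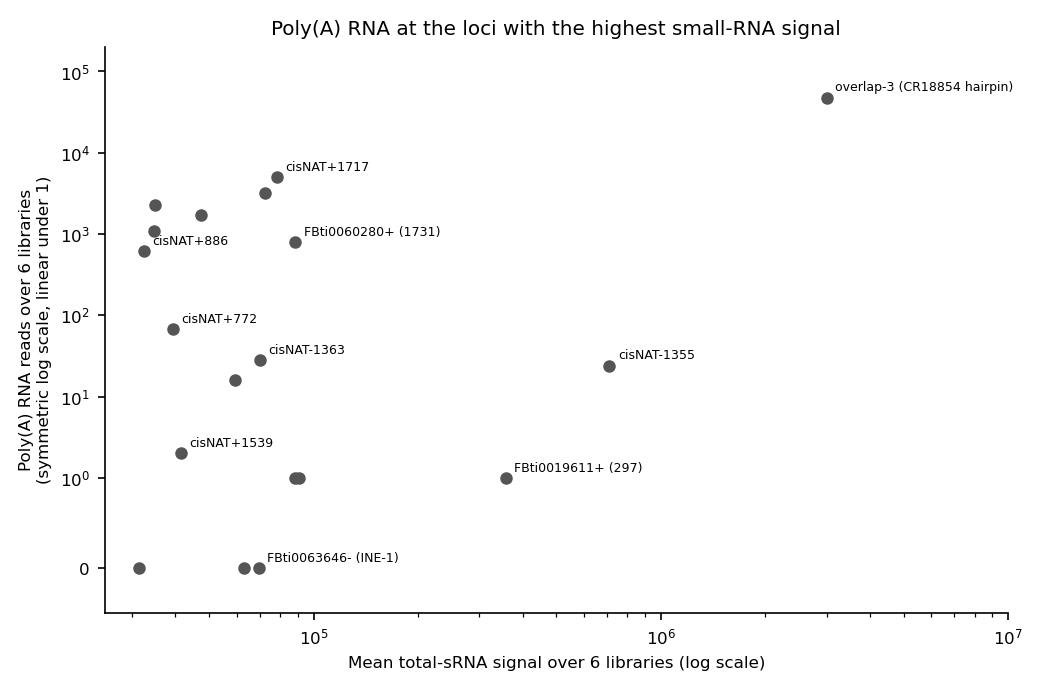
Recovered poly(A) reads summed over 6 libraries against mean small-RNA signal in total small-RNA libraries (log axes) for 19 of the 20 leading small-RNA loci, the other having no recovered reads. overlap-3, which holds hpRNA:CR18854, is highest on both axes, while cisNAT-1355, next in small-RNA signal, holds 24 poly(A) reads and 3 loci lie at 0 (the vertical axis is linear under 1 read).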

How the data were processed

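RNA was enriched for poly(A), made into stranded libraries and sequenced as 50-nt single-end reads. Per the study's methods and the labels, the authors aligned reads to dm6 with STAR 2.4 and measured their list of siRNA-generating loci with Cufflinks and Cuffdiff 2.2.1, and deposited FPKM per entry and library. The small-RNA signal used beside it was deposited by the authors as reads scaled to genome-mapped reads without length correction. The methods name a correction for reads that map to several places, yet values came out as whole reads, and how repeat copies share reads was not tested.

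Reads were recovered by multiplying FPKM with an effective length (fragments of mean 200 nt, SD 80 nt, 45 to 440 nt), with a tolerance of 0.02 reads that widened at high counts. The genome-mapped reads of each library, used for RPM and as edgeR library size, were inferred from the same FPKM values. Of the cis-NAT entries, 259 were counted over part of their span and 93 were not resolved, none of them tested. Every column had a sample, and 0 columns were without one.

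The main test was limma 3.58.1 (R 4.3.3) with a trended prior on log2(FPKM + 0.01), two-sided, Benjamini-Hochberg over 1921 loci above 0 in all 6 libraries whose SD was below the mean (coefficient of variation limit 1) within both genotypes. edgeR 4.0.16 and DESeq2 1.42.0 were run on recovered reads, with edgeR printed as an alternative. Class and family sums were compared by exact permutation. On simulated data with 200 of 1921 loci changed 4-fold in each of 10 rounds, limma recovered 88.9% (4.81% of its calls false). edgeR recovered 94.3% (3.74% false). The changed loci were drawn from those with at least 60 reads, and the spread between libraries followed the edgeR dispersion trend alone. These rates therefore do not cover loci with fewer reads or with a wider spread among lines. Nor do they cover a smaller share of changed loci, where the adjusted threshold is harder to pass. In the data, cisNAT-590 differed 11.8-fold by limma and still had an adjusted p of 0.0986. SD values give the spread among lines, and SE values come from the limma fit and rest on the variation between libraries. The limit given for a genotype without reads covers counting error only.

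Loci were named by rule: overlap-194 with its other strand, the single named loci, the zfh2 and Myc cis-NATs with their other strands, at most 10 loci per direction with the smallest p and no overlap between genotypes, the 8 highest in FPKM, cis-NATs at genes of the small-RNA list, and 17 transposable-element families. The members and lists were chosen with earlier results of these data known. Loci named for edgeR calls, for the most reads or for a line that stands apart were added after the values were seen.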

Additional observations from a re-analysis of the deposited data

Results flagged for a closer look

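Small RNA of the window chr2R:6400001-6500000, which no comparison between genotypes used, was higher in dora replicate 3 than in every WT line in all 3 kinds of small-RNA library. In total small-RNA libraries the summed signal of the window, in the authors' units, was 12880 in dora replicate 3, beside 1794 to 2764 in WT, 2081 in dora replicate 1 and 4269 in dora replicate 2. In periodate-treated libraries it was 33443, beside 8188 to 11869 in WT, 5026 in dora replicate 1 and 10770 in dora replicate 2. Among small RNAs bound to Ago1 it was 1902, beside 218.7 to 596.6 in WT, 538.4 in dora replicate 1 and 561.4 in dora replicate 2. The same line was the one with high poly(A) RNA of this window, at 142.5 RPM.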

How the results depend on the processing

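The limma count of loci past the threshold, 0 higher and 0 lower, was the same without each of the 6 libraries in turn (0 to 0) and under both other pseudocounts, a mean of at least 1 FPKM, loci of any coefficient of variation, no trend, rescaling and the replicate block. Without the filter on low values it was 2 higher and 8 lower of 5013, loci at 0 in 1 genotype with at most 14 reads. With at least 60 reads, a setting chosen after seeing the data like all edgeR settings below, it was 3 and 3 of 1226 (cisNAT-161, cisNAT-1350 and FBti0060938- higher, cisNAT-1253, cisNAT-402 and cisNAT-590 lower, adjusted p = 0.0497). edgeR on recovered reads gave 12 and 9 and DESeq2 30 and 12. edgeR gave 22 and 9 with TMM, 3 and 3 with loci of any coefficient of variation, 4 and 7 with at least 60 reads, and 3 to 34 higher and 4 to 24 lower without 1 library, with the highest counts without dora replicate 3 and the lowest without WT replicate 2 (higher) and WT replicate 3 (lower). The cause of these shifts was not tested.

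The replicate block gave 33 higher and 29 lower in edgeR and included all 21 calls. Whether replicate numbers pair libraries across genotypes was not stated. The deviations of same-numbered libraries correlated at -0.09, -0.05 and 0.14 over 1226 loci, beside -0.13 to 0.16 for unlike-numbered libraries. With so few pairs these correlations do not settle it.

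Of 61 named loci tested, 2 changed sign with all libraries kept. cisNAT-885 went to 0.069 after rescaling, 0.077 in DESeq2 and 0.060 in edgeR with TMM, and cisNAT+1614 to 0.10, 0.10 and 0.083. Without 1 library, 5 changed sign, with ranges of -1.04 to 1.83 for FBti0019622-, -0.13 to 0.99 for cisNAT+1017, -0.11 to 0.053 for cisNAT+1614, -0.034 to 0.23 for cisNAT-1327 and -0.15 to 0.13 for cisNAT-885. Past the threshold were 0 of them in limma settings on the same loci. The ratio of summed FPKM rose above 1 after rescaling for cis-NATs (1.06) and antisense transposable-element entries (1.05). Without 1 library, it ranged from 0.954 to 1.02 for cis-NATs, and the RPM ratio of antisense entries from 0.938 to 1.02. Entries under 10 reads per library limit the precision of the smallest p-values.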
